A study of Mus musculus with 12 samples.

Results

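Deep-layer projection neurons of the mouse neocortex were compared between embryonic days E16.5 and E18.5 by their open chromatin. The comparison used 4 of the 12 peak lists of the series, chosen by their stage labels: 2 replicates of deep-layer E16.5 and 2 of deep-layer E18.5. The assay was ATAC-seq: the Tn5 transposase inserts sequencing adapters into accessible DNA, and peaks mark where many insertions fell. All groups were CD1 mice. Deep-layer cells were sorted by FACS for the Golli-GFP transgene, which is driven by a promoter of the myelin basic protein gene, and were also collected at E13.5. Upper-layer cells were marked with a Cdk5r promoter-GFP plasmid electroporated in utero at E15.5 with 2 replicates each at E17.5 (before birth), P1 and P5 (after birth). Each replicate pooled 2 to 8 embryos, and 250000 to 500000 GFP-positive cells were sorted. GFP marks whichever cells use these promoters, so each list is an average over the sorted cells, and a region open in fewer cells cannot be told apart from a region less open in each cell. The labels do not say whether replicates came from separate litters, so a p-value over lists measures no more than how far these lists scatter, and that scatter may be technical. Positions are on mm9, counted from 1. The sorted cells were not checked here against marker genes, because no mm9 gene annotation was used, and regions are named by position.

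Deep-layer neurons occupy layers V and VI and include the subcerebral neurons, whose axons reach the brainstem and spinal cord, and the corticothalamic neurons, whose axons reach the thalamus. They are born before upper-layer neurons, which mostly connect the cortical hemispheres and areas. From E16.5 to the days before birth, deep-layer neurons are already postmitotic, extend axons into their targets and begin to form dendrites and synapses. Distal regulatory elements such as enhancers are generally open in a cell-type- and stage-dependent way, while many promoters stay open across stages.

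The 4 lists differed in length within each stage more than between stages. E16.5 replicates 1 and 2 held 126828 and 99225 peaks, and E18.5 replicates 1 and 2 held 96452 and 123839 peaks. The means were 113026 ± 19518 at E16.5 and 110146 ± 19366 at E18.5 (SD, n = 2 each), a difference within the spread between replicates (p = 0.667, exact permutation test, two-sided). With 2 lists against 2 the smallest p that this test allows is 0.333, so no difference between the 2 stages can pass 0.05 on such a value. The number of peaks stands for depth here, since the lists give no reads. Median peak width was 410 and 403 bp at E16.5 and 416 and 476 bp at E18.5. E18.5 replicate 2 had the widest peaks and covered 75.2 Mb, against 61.6, 48.0 and 52.1 Mb in the order E16.5 replicate 1, E16.5 replicate 2 and E18.5 replicate 1.

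E18.5 replicate 1 stood apart from the other 3 lists in what it shared with the postnatal upper-layer lists. Peaks of all 12 lists that overlapped or touched were merged into 498516 regions, and a region counts as open wherever at least 1 bp of it is covered by that list's peaks. Without such a peak it counts as closed in that list, which cannot be told apart from a peak that was missed. Of the 13896 regions that were open in E18.5 replicate 1 and in none of the other 3 lists, 27.6% ± 1.25 (SD over the 4 P1 and P5 lists) were open in a postnatal list. For regions open in E18.5 replicate 2 alone the share was 7.79% ± 1.9, for E16.5 replicate 1 alone 3.45% ± 0.535 and for E16.5 replicate 2 alone 8.97% ± 0.589 (SD, n = 4 lists each). In the E13.5 and E17.5 lists the order was turned around: E18.5 replicate 1 had the lowest share, 8.38% ± 1.8, against 22.5% ± 5.33, 28.5% ± 4.32 and 20% ± 3.56 for the other 3 lists in the same order (SD, n = 4 lists each). The Jaccard index, the shared length of a pair of lists over their joint length, also put E18.5 replicate 1 nearest to the postnatal lists: with P1 and P5 lists it averaged 0.230 for E18.5 replicate 1, 0.192 for E18.5 replicate 2, 0.165 for E16.5 replicate 1 and 0.185 for E16.5 replicate 2. As whole lists, the E18.5 replicates were nonetheless closer to each other (0.514) than E18.5 replicate 2 was to E16.5 replicate 1 (0.503) or replicate 2 (0.459). The E16.5 replicates had an index of 0.476, so E16.5 replicate 1 was closer to E18.5 replicate 2 than to its own replicate. Most shares, states, widths and distances that rest on E18.5 replicate 1 are therefore given below with and without it. Named regions and windows are given with it only. The labels name no batch, and the cause of this difference was not tested.

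**Figure D1:**
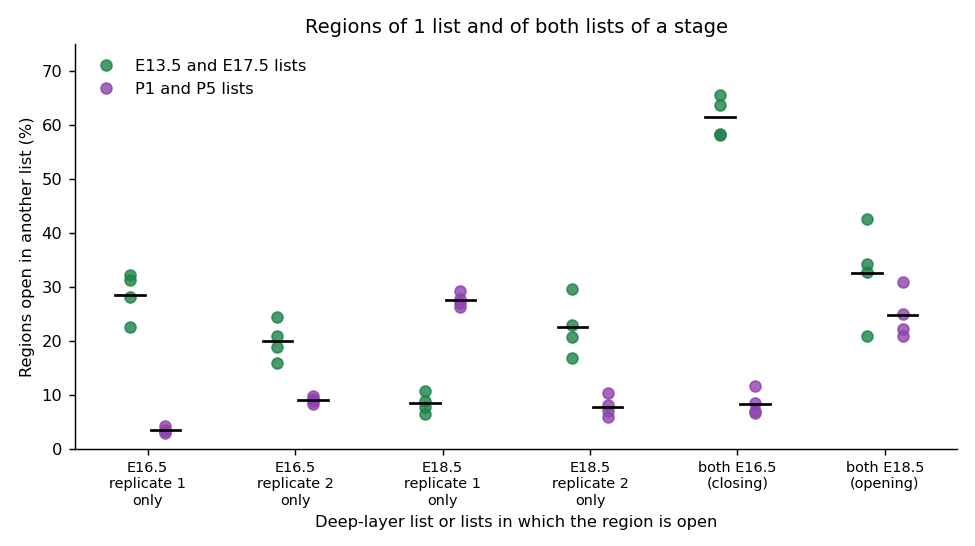
Share of regions (y axis, percent) that were open in each of 8 other lists, for regions open in 1 deep-layer list alone or in both lists of a stage and in no other of the 4 (x axis). Points are lists and bars are means of 4 lists. Regions of E18.5 replicate 1 alone are open in 26.3% to 29.2% of cases in P1 and P5 lists, above the regions of each other single list.

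Opening regions, defined as open in both E18.5 lists and in neither E16.5 list, numbered 5845, and closing regions, with the 2 stages exchanged, numbered 4295. These were 1.17% and 0.862% of all merged regions, and 3.29% and 2.42% of the 177651 regions open in at least 1 of the 4 lists. Steady regions, open in all 4 lists, numbered 55621. No test was made per region, since 2 lists against 2 cannot give a p under 0.05. Single-list regions were far more frequent than either set, with 27127 in E16.5 replicate 1, 20819 in E18.5 replicate 2, 13896 in E18.5 replicate 1 and 11628 in E16.5 replicate 2. The 2 longer lists, E16.5 replicate 1 and E18.5 replicate 2, shared 10760 regions that the 2 shorter lists lacked, while the shorter lists shared 922 that the longer ones lacked. Just outside the definition, 10865 regions were open in both E18.5 lists and 1 E16.5 list, and 11335 in both E16.5 lists and 1 E18.5 list. Of the latter, 10683 were open in E18.5 replicate 2 and 652 in E18.5 replicate 1. The smallest stretch that made a region open was a 200 bp peak, which covered 7.39% of the region in the most extreme opening or closing case.

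The excess of opening over closing regions was 1.36 to 1 and depended on the lists. With 1 list per stage the ratio was 0.448 for E16.5 replicate 1 with E18.5 replicate 1, 0.990 for E16.5 replicate 1 with E18.5 replicate 2, 0.964 for E16.5 replicate 2 with E18.5 replicate 1 and 2.59 for E16.5 replicate 2 with E18.5 replicate 2. With single lists the ratio falls above or below 1 by construction with the number of regions open in each list. With 96452 peaks taken from each of the 4 lists, the widest ones, 5851 regions were opening and 4810 closing, a ratio of 1.22. The number of opening against closing regions is given as a description.

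**Figure D2:**
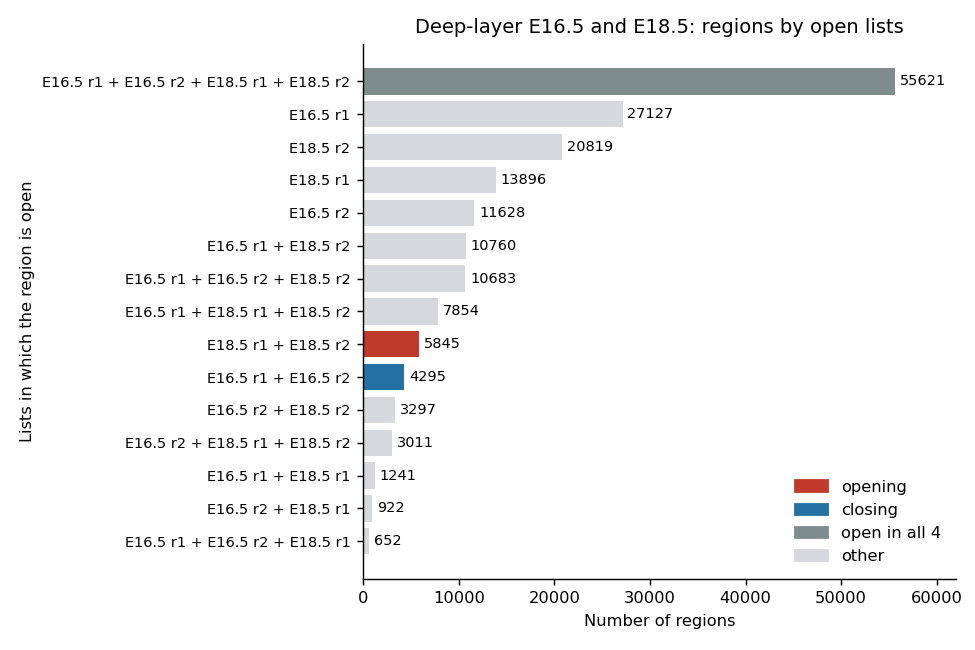
Number of regions (x axis) for each combination of the 4 lists in which a region is open (y axis, r1 and r2 are the replicates). The 5845 opening and 4295 closing regions are small sets beside the 55621 steady regions and the regions of single lists.

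Opening and closing regions had narrower peaks than steady regions. The median of the widest peak per opening region was 315 bp in E18.5 replicate 1 and 387 bp in E18.5 replicate 2. For closing regions it was 340 bp in E16.5 replicate 1 and 284 bp in E16.5 replicate 2. Steady regions had medians of 610 and 547 bp in the E16.5 lists and 574 and 794 bp in the E18.5 lists. Peaks of at least 700 bp (median over the lists that define the set) were found in 6.19% of opening regions, 0.652% of closing regions and 41.3% of steady regions. Without E18.5 replicate 1 the share was 3.63% of opening and 0.667% of closing regions, and the median widest peak of opening regions in E18.5 replicate 2 was 294 bp.

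The widest opening region, by median peak width, lay on chromosome 6 from 53767900 to 53771127. Its widest peak was 2717 bp in E18.5 replicate 1 and 1055 bp in E18.5 replicate 2. It was open in all 8 lists outside E16.5 and E18.5, with peaks of 491 and 379 bp at E13.5 and 1290 and 1621 bp at upper-layer E17.5. This region was thus closed in the E16.5 lists alone. The same held for a region on chromosome 17 from 25569448 to 25571611, with peaks of 1051 and 1934 bp at E18.5, and for one on chromosome 8 from 90722568 to 90724519, with peaks of 1671 and 1269 bp. On chromosome 3 from 108742743 to 108744440, peaks of 1507 and 1678 bp at E18.5 were joined by peaks of 1606 and 818 bp at upper-layer E17.5, by a 417 bp peak in E13.5 replicate 2 and by narrower peaks of 310 to 414 bp in 3 postnatal lists. The region on chromosome 1 from 148402857 to 148404481 was the most restricted of the 5. It had peaks of 1610 and 1382 bp at E18.5, a single 209 bp peak in E13.5 replicate 1 and none in any upper-layer list.

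The widest closing regions had smaller peaks. On chromosome 2 from 143819381 to 143820715 the peaks were 1039 and 968 bp at E16.5 and 885 and 910 bp at E13.5, and 3 of 6 upper-layer lists were open. On chromosome 8 from 9123876 to 9125393 they were 738 and 997 bp at E16.5, and every E13.5 and E17.5 list and 3 postnatal lists were open too. These regions were closed in both E18.5 lists but not in all later ones. A region on chromosome 9 from 56343613 to 56344909 behaved likewise, with 738 and 943 bp at E16.5 and peaks in both E17.5 lists and 3 postnatal lists. On chromosome 10 from 26674730 to 26675816 the peaks were 1087 and 573 bp at E16.5, with all E13.5 and E17.5 lists open and no postnatal list. On chromosome 1 from 179756923 to 179758505 they were 1298 and 358 bp at E16.5 and 591 and 737 bp at E13.5, with no upper-layer list open, so this region was open in E13.5 and E16.5 deep-layer lists only.

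Taken singly, each E13.5 and each upper-layer E17.5 list was open in most closing regions, and each postnatal list in few. Region by region the joint state was less frequent: 1678 closing regions (39.1%) had a peak in each E13.5 list and no postnatal peak. The same state was found in 21.2% of steady and 6.96% of opening regions. E13.5 replicates 1 and 2 were open in 58.1% and 63.7% of closing regions, and upper-layer E17.5 replicates 1 and 2 in 65.6% and 58.3%. The postnatal lists were open in far fewer of them, 6.59% and 11.5% at P1 (replicates 1 and 3) and 6.87% and 8.38% at P5 (replicates 1 and 2). The 2 ranges did not overlap, which was not particular to closing regions. Prenatal shares also lay above postnatal ones without overlap in steady regions, 81.1% to 86.8% against 42.4% to 54.4%. The same held for regions of E16.5 replicate 1 alone (22.6% to 32.2% against 2.93% to 4.2%), and of E16.5 replicate 2 or E18.5 replicate 2 alone. In regions of E18.5 replicate 1 alone the order was turned around. The E13.5, E17.5 and postnatal lists entered the merging that set the extent of the regions, but not the calls at E16.5 and E18.5. With regions merged from the 4 lists alone, 6230 were opening and 4395 closing, and the log2 difference described below was 2.61 (p = 0.0286, exact permutation).

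The shares of opening regions that were open lay near those of all merged regions in both kinds of list. Prenatal lists were open in 32.6% ± 8.94 of opening regions and 27.2% ± 3.95 of all regions, and postnatal lists in 24.7% ± 4.49 and 22.5% ± 2.01 (SD, n = 4). By list, the shares of opening regions were 20.9% and 32.7% at E13.5, 42.5% and 34.3% at upper-layer E17.5, 20.8% and 22.1% at P1 and 25% and 30.9% at P5, in the same order of replicates. Every prenatal list was thus open in more closing than opening regions, and every postnatal list in more opening than closing regions. Steady regions were open in 81.1% to 86.8% of cases in prenatal lists and in 42.4% to 54.4% in postnatal ones.

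The log2 ratio of the opening to the closing share removes only what acts alike on both shares, and whether list length does so was not tested. This ratio was -0.96 ± 0.37 in the 4 prenatal lists and 1.59 ± 0.44 in the 4 postnatal lists (SD, n = 4 each). The difference of 2.54 had p = 0.0286 (exact permutation of list labels, two-sided, 70 splits), the smallest p possible here, and an adjusted p of 0.0357 (Benjamini-Hochberg over 10 such comparisons). Against steady regions, the share of closing regions differed by -2.13 on the log2 scale between postnatal and prenatal lists: -2.58 ± 0.25 against -0.45 ± 0.05 (SD, n = 4 each, p = 0.0286, adjusted p = 0.0357, exact permutation). The share of opening regions relative to steady ones was -1.0 ± 0.2 in postnatal and -1.41 ± 0.42 in prenatal lists on the same scale (SD, n = 4 each, p = 0.143, adjusted p = 0.143, exact permutation), a difference that did not pass. All postnatal lists were upper-layer lists. Among upper-layer lists alone, E17.5 against P1 and P5, the difference was 2.28 (p = 0.0667, exact permutation, the smallest that 2 lists against 4 allow).

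Parts of this pattern rested on single lists. Without E18.5 replicate 1, opening regions were those of E18.5 replicate 2 that no E16.5 list held, and postnatal lists were open in 11.5% ± 2.47 of them against 10.3% ± 2.4 of the closing regions (SD, n = 4), so the higher postnatal share of opening regions was no longer seen. Prenatal lists were still open in a smaller share of opening than of closing regions, 24.7% ± 6.03 against 62.1% ± 3.74 (SD, n = 4). The log2 difference was 1.53 (p = 0.0286, exact permutation). Without E18.5 replicate 2 the postnatal shares were 26.7% ± 1.01 and 13.2% ± 3.25 (SD, n = 4), with a log2 difference of 3.19. Without E16.5 replicate 1 the log2 difference was 0.77, and without E16.5 replicate 2 it was 2.64 (p = 0.0286 for each, exact permutation). In these cases the prenatal log2 ratios were no longer all below 0: none of 4 was without E16.5 replicate 1 (highest 0.48, lowest postnatal 1.01) and 1 of 4 was without E16.5 replicate 2 (highest 0.69, lowest postnatal 2.50). With single lists it was 3.15, 1.85 and 1.80 in the 3 pairings that held a replicate 1, and -0.11 for E16.5 replicate 2 with E18.5 replicate 2 (p = 0.4, exact permutation). The 2 lists labelled replicate 2 alone therefore did not show the difference. The share of closing regions open in postnatal lists stayed low with either E18.5 list, at 10.3% and 13.2%. A low postnatal share was not particular to closing regions. It was 3.45%, 7.79% and 8.97% for regions of E16.5 replicate 1, E18.5 replicate 2 and E16.5 replicate 2 alone, but 27.6% for E18.5 replicate 1 alone. Regions open in both E16.5 lists and 1 E18.5 list had 15.7% ± 3.69 (SD, n = 4). Those open in both E18.5 lists and 1 E16.5 list had 21.2% to 30.2% by postnatal list.

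**Figure D3:**
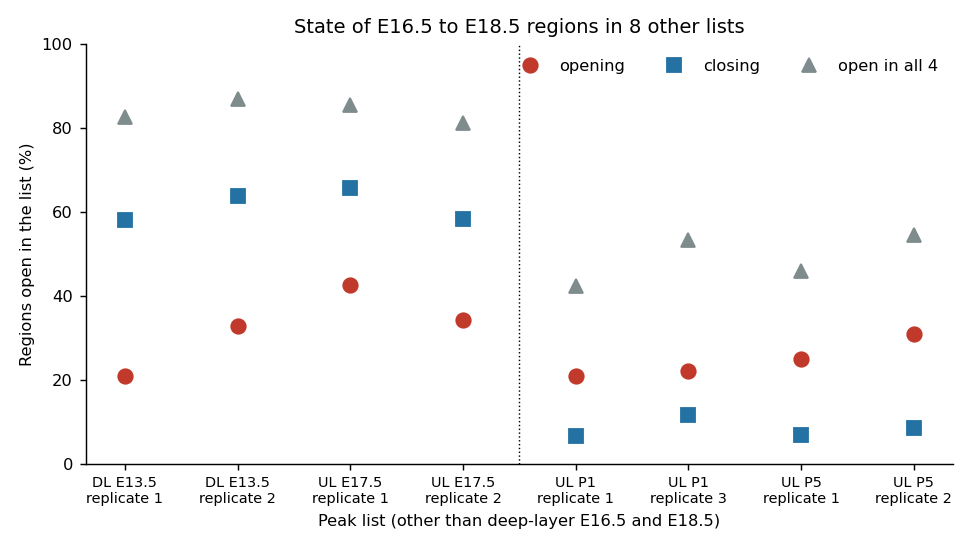
Share of opening, closing and steady regions (y axis, percent) open in each of the 8 lists outside E16.5 and E18.5 deep-layer cells (x axis, DL deep-layer, UL upper-layer, dotted line between prenatal and postnatal). Closing regions lie above opening regions in the 4 prenatal lists, at 58.1% to 65.6%, and below them in the 4 postnatal lists, at 6.59% to 11.5%.

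The contrast was also present among regions of like peak width. For a median peak width from 300 to below 400 bp, postnatal lists were open in 21.5% ± 5.14 of 1967 opening regions, 8.03% ± 2.35 of 1618 closing regions and 29.2% ± 5.55 of 6368 steady regions (SD, n = 4 lists). The prenatal lists were open in 31.6% ± 8.22, 63.9% ± 3.88 and 71.0% ± 4.75 of them. The wider the opening regions, the more often postnatal lists were open, from 17.6% ± 2.55 below 300 bp to 54.6% ± 5.7 at 700 bp and above (SD, n = 4). This rise was not particular to them: steady regions went from 25.4% ± 3.99 to 67.0% ± 5.46 (SD, n = 4). Prenatal shares also rose with width in every set, in opening regions from 27.8% ± 6.78 to 47.3% ± 17.9 (SD, n = 4). In postnatal lists, closing regions had 7.80% ± 1.64 below 300 bp and 10.1% ± 4.28 from 500 to below 700 bp (SD, n = 4). The widest class of closing regions held only 28 regions, with 17% ± 7.36. Without E18.5 replicate 1 the prenatal contrast stood in every class, while the postnatal shares from 300 to below 400 bp were 11.7% ± 2.85 of 6859 opening and 9.70% ± 2.71 of 1871 closing regions (SD, n = 4), and below 300 bp 8.11% ± 1.62 and 9.86% ± 1.64. At 700 bp and above they were 37.6% ± 4.3 of 968 opening and 15.9% ± 7.58 of 33 closing regions (SD, n = 4).

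**Figure D4:**
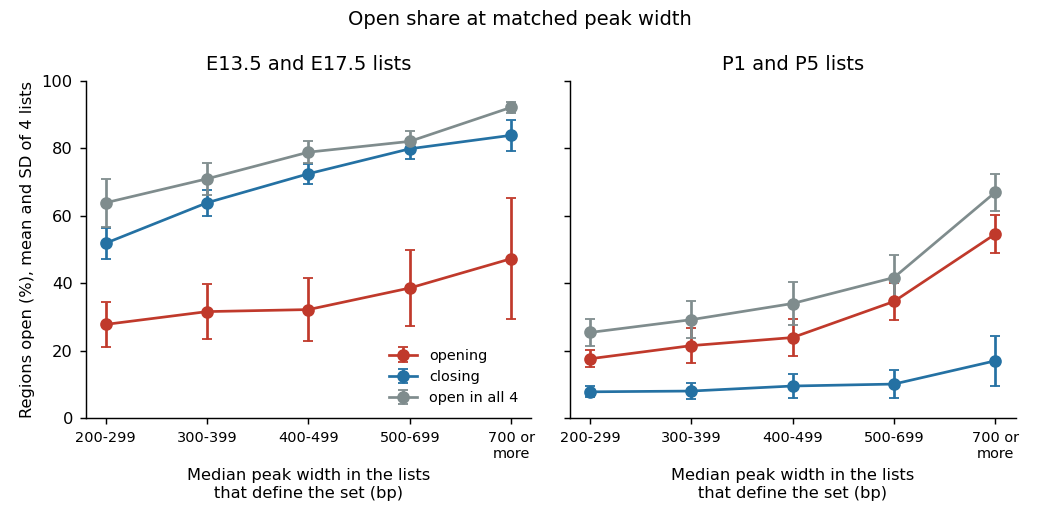
Share of regions open (y axis, percent, mean and SD of 4 lists) in prenatal lists (left) and postnatal lists (right) by median peak width in bp (x axis). Closing regions lie above opening regions in prenatal lists and below them in postnatal lists in every width class, from 7.80% to 17%.

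Single regions combined these states in different ways. Of the 5845 opening regions, 3667 (62.7%) were absent from the E13.5 lists, against 11.0% of steady regions. A further 950 (16.3%) were present in both E13.5 lists, against 80.4% of steady regions, and had no peak in either E16.5 list. On average an E13.5 list was open in 26.8% ± 8.35 of opening regions and 26.5% ± 3.03 of all merged regions (SD, n = 2). Both E13.5 lists held 2257 (52.5%) of the 4295 closing regions and neither held 1321 (30.8%), the latter being open at E16.5 alone among the deep-layer stages. A path of open at E13.5, E16.5 and upper-layer E17.5 in every replicate, and closed in every E18.5, P1 and P5 list, was taken by 1178 closing regions (27.4%). Of the steady regions, 16.1% were open in both E13.5 and both E17.5 lists and in no postnatal list. Another 2021 opening regions (34.6%) and 666 closing regions were open in none of the other 8 lists. No upper-layer list was open in 2354 opening regions (40.3%), 1166 closing regions (27.1%) and 5422 steady regions (9.75%). All 4 postnatal lists were open in 602 opening regions (10.3%) and in 41 closing regions (0.955%), against 18074 steady regions (32.5%). Without E18.5 replicate 1, both E13.5 lists held 53.3% of closing regions and 26.9% took the path just described, while the share open in all 4 postnatal lists was 2.26%, against 0.955% with it. The opening regions then had 70.3% in no E13.5 list, 48.5% in none of the other 8 lists and 3.19% in all 4 postnatal lists.

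Regions open at both stages also differed in extent. The length covered by peaks was compared between lists within the 55621 steady regions, a measure that the definition of opening and closing regions did not use. As deposited, both E18.5 lists covered at least 1.5 times as much as both E16.5 lists in 2707 regions (4.87%), and the E16.5 lists covered at least 1.5 times as much as both E18.5 lists in 205 (0.369%). Over all steady regions E18.5 replicate 2 had a median covered length of 821 bp, against 642, 586 and 607 bp in the other 3 lists (E16.5 replicates 1 and 2, E18.5 replicate 1). After division by each list's median, 1455 regions (2.62%) were wider and 860 (1.55%) narrower at E18.5.

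Steady regions that widened were more often open after birth than those that narrowed. After this scaling, postnatal lists were open in 61.8% ± 4.36 of the wider regions and 23.2% ± 9.56 of the narrower ones (SD, n = 4), beside 49.0% ± 5.84 of all steady regions. Prenatal lists were open in 74.1% ± 6 and 85.1% ± 2.84 of them. The log2 ratio of wider to narrower differed between postnatal and prenatal lists by 1.70 (p = 0.0286, adjusted p = 0.0357, exact permutation). With E18.5 replicate 2 alone against both E16.5 lists, which leaves out the list that stood apart, 2575 regions were wider and 2123 narrower. Postnatal lists were open in 52.4% ± 4.55 and 29.1% ± 7.46 of these (SD, n = 4), a log2 difference of 1.07 (p = 0.0286, adjusted p = 0.0357, exact permutation). With the lists labelled replicate 2 alone the shares were 41.6% ± 4.1 and 43.4% ± 6.81 (SD, n = 4), and the difference was 0.18 (p = 0.0857, adjusted p = 0.0952, exact permutation). The wider regions were longer than the narrower ones, with a median merged length of 1427 bp against 933 bp, and the part of this length in the result was not tested.

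Beside the earlier step from E13.5 to E16.5, the step from E16.5 to E18.5 held fewer changed regions. Between E13.5 and E16.5, 10107 regions opened in both replicates and 22491 closed by the same definition, 60.5 changed regions per 100 open in all 4 lists, against 18.2 per 100 from E16.5 to E18.5. The earlier step covers more days, the E16.5 lists enter both steps, and the E13.5 lists were longer, at 141942 ± 16900 peaks (SD, n = 2). The values are therefore given side by side without a test.

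Opening and closing regions were spread over all chromosomes. Per chromosome, 2.82% (chromosome 14) to 4.19% (chromosome 11) of the regions open in any of the 4 lists were opening, and 1.67% (chromosome X) to 3.25% (chromosome 9) were closing. Chromosome 9 was the only one of the 20 tabulated (1 to 19 and X) with more closing than opening regions, 225 against 203, a ratio of 0.902 beside 1.36 over all regions. Its ratio was also the lowest of the 20 without E18.5 replicate 1 (3.95 against 5.39 overall), without E18.5 replicate 2 (0.868 against 1.32) and without E16.5 replicate 1 (0.659 against 0.860), but not without E16.5 replicate 2 (0.288 against 0.282). Chromosome X had the highest ratio, 1.83, from 163 opening and 89 closing regions. There the value turned on 1 list, at 2.77 without E16.5 replicate 1 and 0.242 without E16.5 replicate 2, and chromosome X held 3.05% and 2.47% of the peaks of these lists. No test over chromosomes was made.

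**Figure D5:**
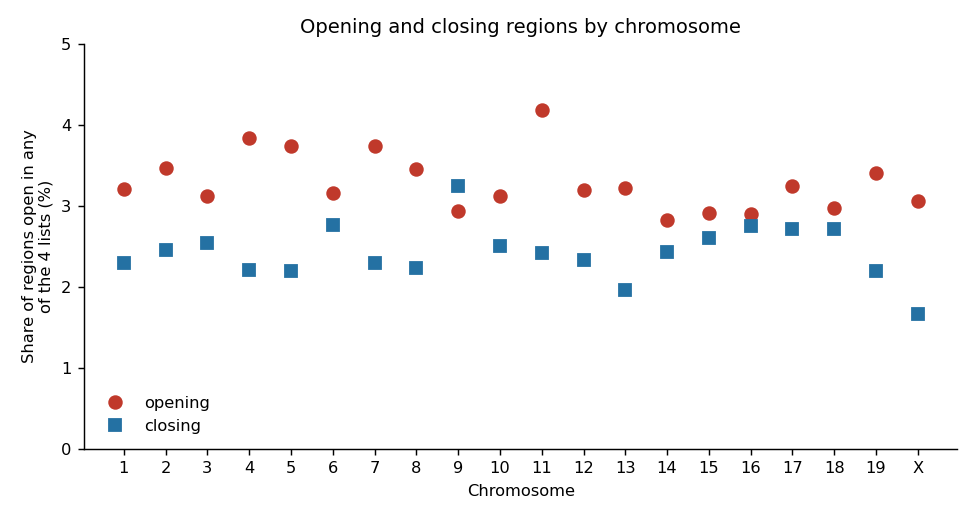
Opening and closing regions as a share of the regions open in any of the 4 lists (y axis, percent) on each chromosome (x axis). Chromosome 9 alone has the closing share, 3.25%, above the opening share, 2.94%.

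Some stretches held many opening or closing regions. Among 2584 windows of 1000000 bp the median was 2 opening and 1 closing region, 1529 windows held both kinds, and 13 held at least 5 of each. The highest opening counts were 15 on chromosome 7 from 103000001 to 104000000, 14 on chromosome 8 from 126000001 to 127000000, and 12 each on chromosome 5 from 15000001 to 16000000 and chromosome 6 from 114000001 to 115000000. In the chromosome 8 window 15.4% of the 91 regions open in any list were opening and none was closing, beside 3.29% and 2.42% genome-wide. Of its 14 opening regions 13 were open in at least 1 postnatal list and 3 in an E13.5 list, beside 43.4% and 37.3% of all opening regions. It also held 25 regions of E18.5 replicate 2 alone and 7 of E18.5 replicate 1 alone, against 3 each of the E16.5 lists alone, so that both E18.5 lists contributed. The chromosome 6 window showed the same leaning, with 10 of 12 opening regions open in a postnatal list, no closing region, and 19 and 11 regions of E18.5 replicates 2 and 1 alone against 5 and 1 of E16.5 replicates 2 and 1. The chromosome 7 window, which had the highest count, differed from both: 7 of its 15 opening regions were open in a postnatal list and 9 in an E13.5 list, 4 regions were closing, and 19 and 13 regions were open in E16.5 replicates 1 and 2 alone. The chromosome 5 window had 10 of 12 opening regions open in a postnatal list, 5 in an E13.5 list, and 1 closing region.

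The highest closing count was 8, reached by 6 windows. A pair of them lay close together on chromosome 6, from 94000001 to 95000000 and from 96000001 to 97000000. In the second of these, 8 of the 37 regions open in any of the 4 lists were closing (21.6%) and none was opening, 6 of the 8 were open in an E13.5 list and none in a postnatal list, beside 69.2% and 21.4% of all closing regions. In the other 5 windows 3 or 4 of the 8 closing regions were open in a postnatal list and 4 to 7 in an E13.5 list. The other 4 windows lay on chromosome 15 from 31000001 to 32000000 and from 64000001 to 65000000, and on chromosome 2 from 118000001 to 119000000 and from 146000001 to 147000000. They held 1 to 4 opening regions each. The windows were picked for their counts, which are given as a description. Counts and states in the opening and closing windows were not taken without E18.5 replicate 1.

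Distances between changed and steady regions are given as a description, with no distance over all regions beside them. The median distance between midpoints to the nearest steady region was 10413 bp for opening and 14538 bp for closing regions, and 48.8% and 38.9% lay within 10000 bp. Opening regions were nearer to another opening region (median 100982 bp, 33.2% within 50000 bp) than to a closing one (210514 bp, 16.1%). Closing regions were about as far from another closing region (169694 bp, 19.2% within 50000 bp) as from an opening one (171339 bp, 20.1%). Without E18.5 replicate 1, with 26664 opening regions, closing regions lay nearer to an opening region (32246 bp) than to another closing one (148272 bp), and the medians to the nearest steady region were 9973 bp for opening and 10977 bp for closing regions. These distances thus moved with the number of regions in each set, and no test was made.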

How the data were processed

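For every sample the authors deposited its own peaks as chromosome, start, end and name, without a score. The submitters' processing notes list cutadapt, Bowtie2, Picard 1.14.0, MACS2 2.1.0 and the build mm9. What each tool did, the peak thresholds, any shift for the transposase and the read numbers: not given in the sources used here.

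Peaks of the 12 lists were merged and each region was called open or closed per list. Jaccard indices came from bedtools 2.31.1, other values from Python 3.11.15 with numpy 2.4.6, pandas 2.3.3 and statsmodels 0.14.6, and figures from matplotlib 3.10.9. List values were tested by exact permutation of list labels. The code was tested on simulated lists. Named regions were the 5 per set with the largest median peak width, and named windows the 3 highest counts with ties. The comparison, lists and tests were chosen with earlier results of these data known. Comparisons of covered length, single pairings, width classes and steady regions, and the omission of rule lists, were added after seeing the data. Planned results on promoters, motifs and gene lists are not analysed here, since no mm9 annotation or sequence was used.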

Additional observations from a re-analysis of the deposited data

Results flagged for a closer look

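The log2 ratio of open shares, opening over closing regions, was higher in the 4 postnatal lists than in the 4 prenatal lists outside the comparison, by 2.54 (p = 0.0286, exact permutation, two-sided). It was above 0 in 4 of 4 postnatal lists and below 0 in 4 of 4 prenatal lists. Population and age are partly joined here, since all postnatal lists are upper-layer lists, and the 2 cannot be told apart beyond the E17.5 lists. The peak names of both E17.5 lists carry 1 library name. Without E17.5 replicate 1 or 2 the difference was 2.65 and 2.61.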

How the results depend on the processing

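The opening count was 5214 to 8510 and the closing count 2674 to 4810 over the 7 planned settings that kept all lists, with 2674 closing regions when peaks had to be at least 300 bp wide. The ratio of opening to closing regions was 1.22 to 2.71 over 6 of these, with 2.71 when a list's peaks had to cover 0.5 of a region. With a list left out, a single list then defined its stage: opening counts were 8856 to 26664, closing counts 4947 to 31422 and their ratio 0.282 to 5.39, turning below 1 without E16.5 replicate 1 (0.86) or replicate 2 (0.282). The cause was not tested beyond this construction. The log2 difference between postnatal and prenatal lists was above 0 in all 21 alternatives that kept at least 3 of the 4 lists of the rule, at 0.77 to 3.19 with a list left out and 2.28 to 3.44 otherwise. It did not pass among upper-layer lists only (2.28, p = 0.0667, exact permutation) or with labels permuted within replicate number (the replicate block, 2.54, p = 0.0556, exact permutation), where 15 and 18 splits allow no smaller p. Asking for the change within each same-numbered pair, as a replicate block, gives the same regions by definition (5845 and 4295). Whether replicate numbers pair the lists cannot be decided here. The open states of E16.5 and E18.5 replicate 1 deviated from their stage means with a correlation of -0.0433. It was taken over the 177651 regions open in at least 1 of the 4 lists, and both this choice and the list lengths bear on it. Alternatives for promoters, motifs and gene lists were not run, since no mm9 annotation was used. The number of peaks limits all counts, and no read depth is known.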

Other observations

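Peaks on contigs not placed on a chromosome numbered 631 in E18.5 replicate 1, against 269 in E18.5 replicate 2 and 235 and 323 in E16.5 replicates 1 and 2. The postnatal lists held 927 to 2047 of them. On these contigs 21 regions were opening and 4 were closing, and the part of contig peaks in the likeness of E18.5 replicate 1 to postnatal lists was not tested. On autosomes alone, without contigs and chromosome X, 5661 regions were opening and 4202 closing, and the log2 difference between postnatal and prenatal lists was 2.54.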
